A study of Mus musculus with 16 samples.

Results

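Cells of the E11.5 mouse yolk sac that were sorted as positive for both VE-cadherin and CD45 were compared between Tie-2-Etv2 animals and controls. The 2 Tie-2-Etv2 arrays and the 2 control arrays were chosen by their titles, which give genotype, tissue and gate, and they are 4 of the 16 arrays of the study. In Tie-2-Etv2 animals an Etv2 transgene is switched on by a Tie-2 Cre transgene. The controls are labelled only as control, and their alleles are not given in the sources used here. All animals had a mixed background of B6/CBA and other strains. The other 12 arrays hold the CD45− gate of the yolk sac and both gates of the embryo proper, each with 2 Tie-2-Etv2 and 2 control arrays. Nothing in the labels says whether the 2 arrays of a group came from separate litters, embryos or sorts, so the p-values below measure the spread between arrays, which may be technical. Cells were sorted by flow cytometry and not treated further, and their RNA was hybridised in 1 colour (Cy3) to Agilent arrays.

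Etv2 is a transcription factor of the ETS family without which mouse embryos form neither blood nor vessels, and it is normally on only for a short time in their common precursors. Tie-2 Cre is active in endothelial cells and in the blood cells that arise from them, and recombination by Cre is permanent, so that daughter cells keep the transgene on. The yolk sac is the first site of blood formation in the mouse: it makes primitive red cells, macrophages and megakaryocytes, and then erythro-myeloid progenitors, which bud from hemogenic endothelium. VE-cadherin is a junction protein of endothelium that newly formed blood cells still carry for a while, and CD45 is the surface phosphatase of nucleated blood cells other than red cells.

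A level below is the log2 of a probe's processed intensity after the 75th percentile of its array is taken off, so that 0 marks the 75th percentile. Levels of different genes come from different probes and are not set against each other. A difference is the mean level of the Tie-2-Etv2 arrays minus that of the control arrays, followed by its standard error. A gene was called higher or lower where limma's test across all genes, with the Benjamini-Hochberg adjustment, gave an adjusted p under 0.05, and every adjusted p below is of that kind. RNA of a whole sorted population was measured, so fewer cells of a type and less RNA per cell cannot be told apart.

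The array has 2 probes for Etv2, and their sequences are shown because the check of the transgene rests on them. On mm9, the build of the files, both lie on the minus strand of chromosome 7, at chr7:31418776-31418835 for the first and chr7:31419633-31419692 for the second. Which exon each one lies in was not analysed here. It was also not tested whether the probes separate RNA of the transgene from RNA of the animal's own Etv2 gene.
Etv2 probe 1: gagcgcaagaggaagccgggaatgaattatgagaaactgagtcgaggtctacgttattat
Etv2 probe 2: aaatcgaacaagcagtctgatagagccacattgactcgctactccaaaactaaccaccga
Probe 1 read 2.11 and 1.76 on the Tie-2-Etv2 arrays, against −6.20 and −2.09 on the control arrays. Probe 2 gave nearly the same picture, with 2.10 and 1.97 against −5.13 and −1.88. Both Tie-2-Etv2 arrays lay above both control arrays with either probe, and on control array 1 neither probe was well above background. By probe 1, which stands for the gene, Etv2 was higher by 6.08 ± 0.96 (adjusted p = 0.00083). The size rests on the dark control array: the difference was 4.02 without control array 1 and 8.13 without control array 2, and with normexp background correction it was 3.42. In a fit of the 4 arrays alone the adjusted p was 0.0637.

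The genes of the gate were measured in both groups. Ptprc, which encodes CD45, read 2.08 and 2.06 in Tie-2-Etv2 cells and 3.28 and 3.41 in control cells, a difference of −1.28 ± 0.30 (adjusted p = 0.0075). In CD45− yolk sac cells its mean level was −3.18 in Tie-2-Etv2 and −4.99 in control animals. Cdh5, which encodes VE-cadherin, read 2.86 and 3.13 in Tie-2-Etv2 cells and −0.44 and −0.08 in control cells, and was higher by 3.25 ± 0.30 (adjusted p = 4.14e-05). Tek, the gene of Tie-2 itself, read 2.52 and 2.64 in Tie-2-Etv2 cells and −2.93 and −1.96 in control cells, and was higher by 5.03 ± 0.31 (adjusted p = 7.32e-06). In CD45− yolk sac cells the mean level of Cdh5 was 4.74 in Tie-2-Etv2 and 5.75 in control animals, above both CD45+ groups. Both gate markers were thus well above background on all 4 arrays, with less Ptprc and more Cdh5 RNA in the Tie-2-Etv2 sort.

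Across the array 8000 of 24588 genes were called (32.5%), with 4458 (18.1%) above and 3542 (14.4%) below their controls, so that any list of genes holds many calls. The median difference over all genes was 0.04. Of the called genes, 979 were higher and 1338 were lower by more than 2 on the log2 scale, and 225 and 161 by more than 4. The groups overlapped at 1 called gene, 4930447F24Rik. Of the higher genes, 447 were not well above background on either control array, and of the lower genes 390 were not on either Tie-2-Etv2 array. The 2 control arrays were less alike than the 2 Tie-2-Etv2 arrays: the median size of the difference between arrays was 0.21 for Tie-2-Etv2 and 0.36 for control. For 74.4% of the genes called lower control array 2 lay nearer to the Tie-2-Etv2 mean than control array 1 did, against 51.4% of those called higher and 56.5% of all genes. All 4 arrays shared 1 slide and 1 scan.

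**Figure D1:**
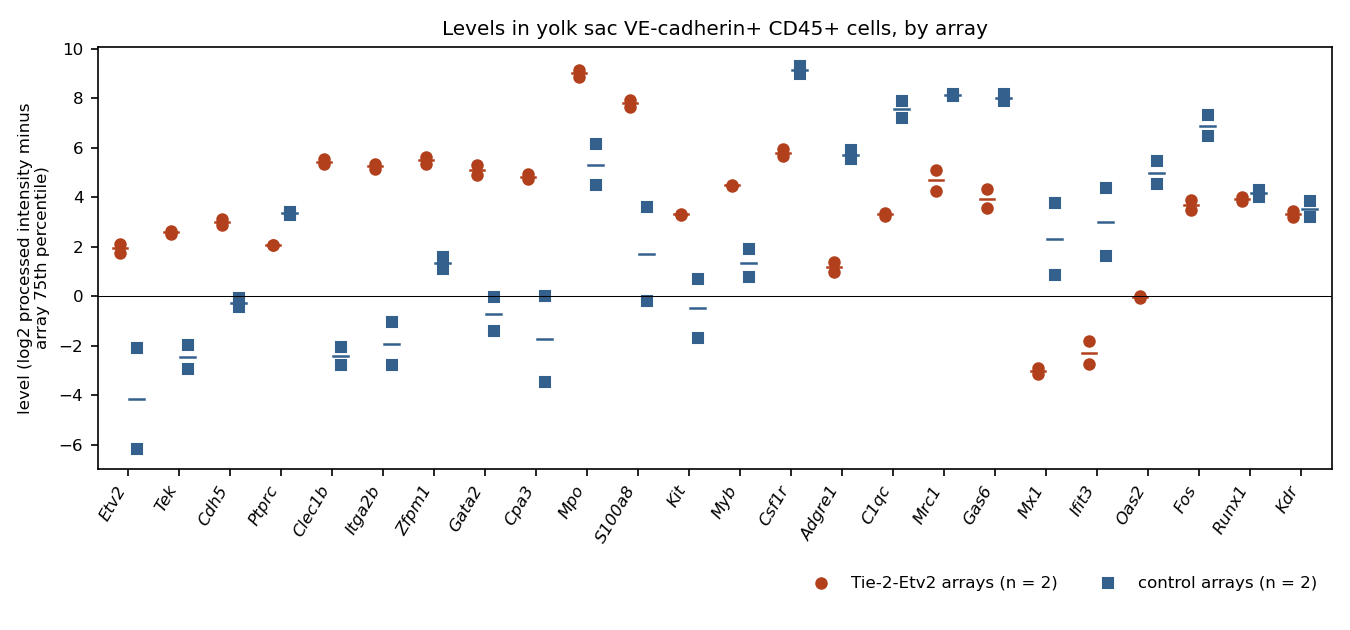
Levels of 24 genes in yolk sac VE-cadherin+ CD45+ cells. The vertical axis is the level (log2, 0 at the array's 75th percentile); circles are the 2 Tie-2-Etv2 arrays, squares the 2 control arrays and short lines the group means. Megakaryocyte, mast cell, granule and progenitor genes (Clec1b to Myb) are higher in Tie-2-Etv2 cells, macrophage and interferon genes (Csf1r to Oas2) are lower, and Runx1 and the brighter Kdr probe lie close together.

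The 15 largest increases included genes of megakaryocytes, mast cells and granulocytes. Tuba8, an alpha-tubulin isotype, read 5.34 and 5.46 on the Tie-2-Etv2 arrays and −3.81 and −1.81 on the control arrays, and was higher by 8.21 ± 0.53 (adjusted p = 8.48e-06). Clec1b, the platelet receptor for podoplanin, was higher by 7.85 ± 0.28, Itga2b, the alpha subunit of the platelet fibrinogen receptor and the CD41 antigen of early blood progenitors, by 7.17 ± 0.47, and Hapln1, a link protein of hyaluronan matrix, by 6.92 ± 0.47. Mmrn1 (a multimerin of platelets and endothelium), Adgrg3 (an adhesion receptor), Cpa3 (mast cell carboxypeptidase), S100a8 (a subunit of calprotectin) and Stfa3 (a stefin) followed, with differences between 6.83 and 6.04. Treml1, Slco4a1, Ctse, Gp9 and Gata2 were also among the 15 largest, with differences between 6.03 and 5.83. S100a8 read 7.94 and 7.65 in Tie-2-Etv2 cells and −0.20 and 3.58 in control cells, and its adjusted p was 0.118 without control array 1, 0.0714 and 0.0577 without Tie-2-Etv2 array 1 or 2, and 0.054 in a fit of the 4 arrays alone. Stfa3 belongs to a family of near-identical genes that a probe may not separate.

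Several genes were measured in Tie-2-Etv2 cells and were not well above background on either control array, so that only a lower bound of the fold can be given. Kcnj5, a potassium channel subunit, read 4.39 and 4.41 in Tie-2-Etv2 cells and was at least 431-fold higher (adjusted p = 5.72e-06). Oosp1 was at least 66.0-fold, Csgalnact1, an enzyme of chondroitin sulfate synthesis, at least 57.4-fold and Ubash3a, a signalling protein of T cells, at least 52.5-fold higher. Scin, which severs actin in megakaryocytes and other secretory cells, was at least 40.1-fold, Gp1ba, the platelet subunit that binds von Willebrand factor, at least 37.5-fold, Robo3 at least 33.0-fold and Ppp1r3g at least 32.8-fold higher. The bound sets the Tie-2-Etv2 mean against the lowest signal well above background on each control array, or against the gene's own level there where that was higher.

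The largest decreases included interferon-induced and macrophage genes. Nhlh1, a basic helix-loop-helix factor, read −0.48 and −0.78 in Tie-2-Etv2 cells and 6.30 and 4.35 in control cells, and was lower by a difference of −5.96 ± 0.58 (adjusted p = 5.03e-05). Its other probe differed by only −0.85. Npcd differed by −5.57, Mx1 and Mx2 (interferon-induced GTPases) by −5.34 and −5.30, Ifit3 by −5.28 and Ifit3b by −4.98. Ifit3 and Ifit3b are near-identical copies that the probes may not separate, and Ifit3b lost its call without control array 1 (−3.45, adjusted p = 0.0657). Adrb1 entered through a probe that was not well above background on either Tie-2-Etv2 array, and its other probe, well above background on all 4 arrays, differed by −1.62. Ms4a7, a membrane protein of macrophages, Oas2, Reps2, C2 (a complement protease), Cbr2, Ifi27l2a, Clec4a3 and Clec10a (a lectin of macrophages) had differences between −5.03 and −4.83. Among genes not well above background on either Tie-2-Etv2 array, Ms4a14 was at least 28.1-fold lower, and Hivep3, Samd4, Mxra8, Mmp13 (a collagenase), Ly6g6e, 1810007D17Rik and Slc39a12 at least 15.7-fold to 11.6-fold lower.

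Macrophage genes fell together. Of 58 tested genes of the list 49 were lower, 0 were higher by limma (also 0 at an unadjusted p under 0.05), and 9 did not pass. The median difference was −3.48 over the list and 0.04 over all genes. Csf1r, the receptor for the growth factor of macrophages, read 5.67 and 5.93 in Tie-2-Etv2 cells and 9.30 and 8.97 in control cells, and differed by −3.33 ± 0.26 (adjusted p = 1.78e-05). Adgre1, a surface receptor that marks mouse macrophages, read 0.97 and 1.37 in Tie-2-Etv2 cells and 5.90 and 5.54 in control cells, and differed by −4.55 ± 0.26 (adjusted p = 6.14e-06). For both genes the 2 Tie-2-Etv2 arrays lay below the 2 control arrays, as they did for 30.5% of all genes. C1qc, a chain of the complement recognition protein, differed by −4.25 ± 0.35, Mrc1, the mannose receptor, by −3.47 ± 0.48, and Gas6, a ligand of receptors that clear dead cells, by −4.08 ± 0.31. P2ry12 and P2ry13, purine receptors, differed by −3.98 and −3.95, Lyve1, a hyaluronan receptor of yolk sac macrophages and lymphatic endothelium, by −3.34, and F13a1, the clotting factor XIII subunit, by −3.15. The genes were lower and not absent: all 8 defining macrophage markers were well above background on both Tie-2-Etv2 arrays. Their summed linear level, in multiples of the array's 75th percentile, was 154 to 188 in Tie-2-Etv2 cells and 1694 to 2238 in control cells.

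Lysosome, scavenger and complement genes, which overlap the macrophage list, moved the same way: 40 of 43 were lower and 0 higher by limma (also 0 at an unadjusted p under 0.05), with a median of −2.21. Cd68, a lysosomal protein of macrophages, read −0.85 and −0.83 in Tie-2-Etv2 cells and 2.73 and 2.51 in control cells, a difference of −3.47 ± 0.55 (adjusted p = 0.00089). Grn, the precursor of granulins, differed by −3.55 ± 0.22, Atp6v0d2, a proton pump subunit, by −3.43 ± 0.25, and Msr1, a scavenger receptor, by −3.49 ± 0.55. The general lysosome genes Ctsd, a protease, and Lamp1, a membrane protein, had differences of −2.06 and −1.85.

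Interferon-induced genes were lower in 23 and higher in 1 of 36 tested, with a median of −2.77. The 1 higher gene was Ifitm1, which read 4.90 and 4.48 in Tie-2-Etv2 cells and 1.47 and 2.72 in control cells. Oas2, which makes the signal that activates RNase L, read 0.02 and −0.09 in Tie-2-Etv2 cells and 5.45 and 4.52 in control cells, and differed by −5.02 ± 0.66 (adjusted p = 0.000295). Mx1 read −2.91 and −3.16 in Tie-2-Etv2 cells and 3.76 and 0.85 in control cells. The list was higher on control array 1 than on control array 2: its median level was 0.13 and 0.25 on the Tie-2-Etv2 arrays and 3.66 and 2.47 on the control arrays. For all 36 genes control array 2 was nearer to the Tie-2-Etv2 mean. The decrease was found with either control array, as 19 to 24 of the genes were lower with any 1 of the 4 arrays left out. Irf7, a transcription factor of the pathway, differed by −3.51 ± 0.49, and Ifi27, Ifi204, Oasl2 and Oas1a by −2.80, −3.73, −4.44 and −3.50. Isg15, a ubiquitin-like protein, read 2.21 and 1.98 in Tie-2-Etv2 cells and 6.08 and 4.22 in control cells (adjusted p = 0.0454), and lost its call without control array 1 (adjusted p = 0.246), without either Tie-2-Etv2 array (0.128 and 0.150) and with all probes kept (0.0692). Ifit1 differed by −4.21 ± 1.52 and did not pass (adjusted p = 0.0572), although it did in 5 of 15 alternative settings.

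**Figure D2:**
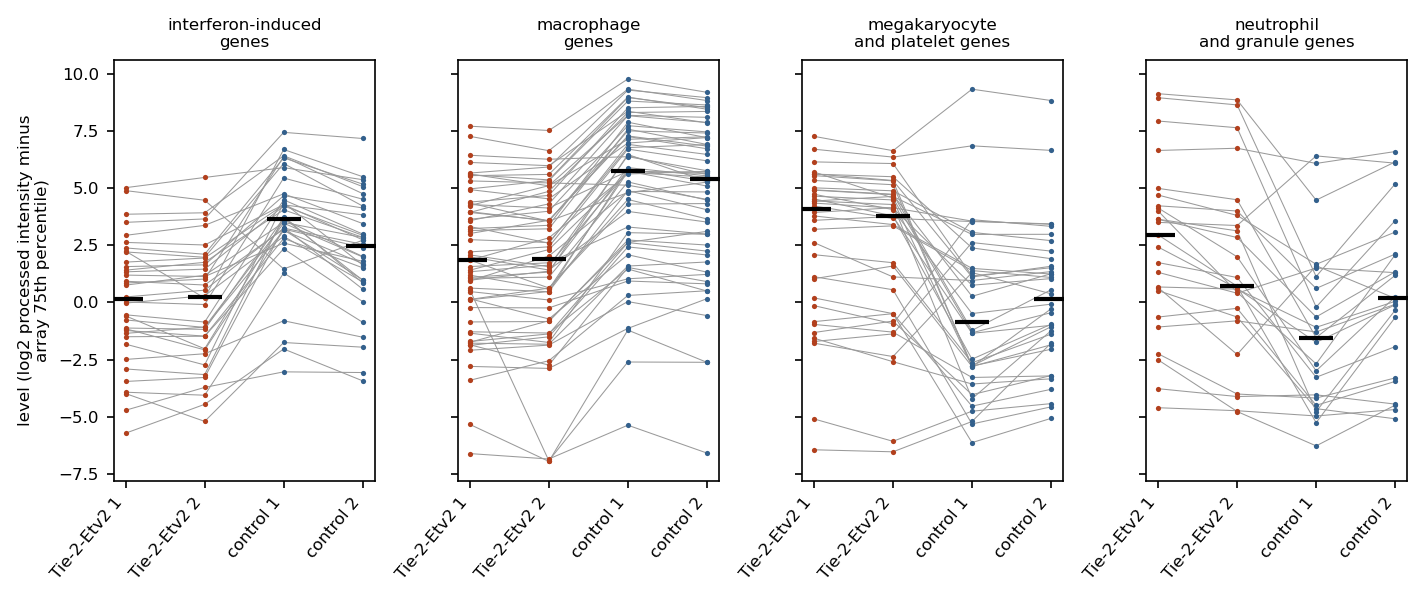
Every tested member of 4 gene lists on each of the 4 arrays. The vertical axis is the level (log2, 0 at the array's 75th percentile); thin lines join the levels of 1 gene and black bars are list medians. Interferon-induced genes lie lowest on both Tie-2-Etv2 arrays and lower on control array 2 than on control array 1, while neutrophil genes differ between the 2 control arrays in the other direction.

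Innate sensing, antigen presentation and receptor genes followed the macrophage genes in part. Of 43 innate sensing and inflammatory genes 21 were lower and 3 higher. Tlr2 and Tlr4, receptors for bacterial products, differed by −2.43 ± 0.46 and −3.42 ± 0.28, Tlr13 by −2.60, Ly96, the partner of Tlr4, by −2.72, Casp1, the inflammasome protease, by −2.97, and Ccl6 by −2.54. The 3 higher were the lectins Clec4d (2.47) and Clec4e (4.89) and the cytokine Il1b. Il1b read 4.43 and 4.23 in Tie-2-Etv2 cells and 3.38 and 3.50 in control cells (adjusted p = 0.0321), and lost its call without any 1 of the 4 arrays (adjusted p from 0.0716 to 0.158). Clec4d lost its call without control array 1 (2.10, adjusted p = 0.138) and without either Tie-2-Etv2 array (adjusted p = 0.149 and 0.0606). Tnf differed by −1.33 and did not pass (adjusted p = 0.0805). Of 23 dendritic cell and antigen presentation genes 9 were lower and 0 higher by limma (1 at an unadjusted p under 0.05), and 5 were lower without Tie-2-Etv2 array 2 and 6 without control array 1. Cd86, a costimulatory ligand, differed by −3.47 ± 0.27 (adjusted p = 1.71e-05), Batf3 by −2.98, Cst3 by −2.17 and B2m, the light chain of class I molecules, by −1.27. Of the class II genes Cd74, the invariant chain, differed by −1.97 (adjusted p = 0.0374), H2-Aa by −2.02 (0.137) and H2-Ab1 by 1.14 (0.0638). H2-Aa was called lower without Tie-2-Etv2 array 1 (−3.40, adjusted p = 0.0317) and with normexp, and differed by −0.65 without Tie-2-Etv2 array 2, while H2-Ab1 was called higher in 3 of 15 alternative settings. Cd74 lost its call without Tie-2-Etv2 array 2 (−1.19, adjusted p = 0.261) and without either control array.

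Of 36 cytokine and chemokine receptors 23 were lower and 5 higher. Il13ra1, Il10rb, Il6st and Ifngr2, receptor chains for interleukins and interferon gamma, differed by −3.44, −2.63, −2.37 and −1.86. Epor, the erythropoietin receptor, read 1.61 and 1.13 in Tie-2-Etv2 cells and 3.97 and 3.54 in control cells and differed by −2.38 ± 0.29. The 5 higher included Kit, Cxcr2, Il2rg and Csf2rb, which bind stem cell factor and chemokines or form shared chains of cytokine receptors. Kit read 3.27 and 3.34 in Tie-2-Etv2 cells and −1.70 and 0.70 in control cells, a difference of 3.80 ± 0.58 (adjusted p = 0.000688). Csf2rb (0.62, adjusted p = 0.0467) lost its call with any 1 of the 4 arrays left out (adjusted p from 0.0978 to 0.208). Csf3r, the receptor of the neutrophil growth factor, differed by 0.36 and did not pass (adjusted p = 0.25).

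Megakaryocyte and platelet genes rose. Of 36 tested 26 were higher and 5 lower, with a median of 3.38. Gp9 and Gp1ba, subunits of the platelet receptor for von Willebrand factor, are among the largest increases above. Zfpm1, which encodes the FOG1 cofactor of GATA1, read 5.63 and 5.34 in Tie-2-Etv2 cells and 1.12 and 1.58 in control cells, and was higher by 4.14 ± 0.23 (adjusted p = 5.72e-06). The regulators Gata1, Nfe2 and Gfi1b, which red cells also use, were higher by 4.68, 4.05 and 4.86, P2rx1, an ATP-gated channel of platelets, by 3.34 and F2r, the thrombin receptor PAR1, by 4.78. The 5 lower were Pf4, Ppbp, Gp6, P2ry12 and Tbxas1. Pf4, a chemokine of platelet granules that macrophages also express, read 7.27 and 6.64 in Tie-2-Etv2 cells and 9.34 and 8.84 in control cells, and differed by −2.13 ± 0.32 (adjusted p = 0.000669). Tbxas1, thromboxane synthase, differed by −4.01 ± 0.31, and Ppbp, the other platelet chemokine, by −2.92. Gp6, the collagen receptor, was not well above background on either Tie-2-Etv2 array, and its bound came to 2.28-fold lower. Gp6 was also not well above background on control array 1. As the bound uses the mean of both control arrays, it holds this dark reading and is no strict lower bound. The difference was −4.71 without control array 1 and −1.28 without control array 2. Ppbp lost its call without control array 1 or Tie-2-Etv2 array 2 (adjusted p = 0.0932 and 0.085) and Gp6 without either Tie-2-Etv2 array (adjusted p = 0.066 and 0.0693). The summed level of the 8 defining markers, in which Pf4 weighs most, was 198 to 299 in Tie-2-Etv2 cells and 461 to 647 in control cells, although 6 of the 8 were higher.

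Part of the mast cell and neutrophil genes rose as well. Of 21 mast cell and basophil genes 14 were tested, of which 9 were higher and 3 lower. The 9 include Kit and Gata2, which are also on the progenitor list. Cpa3 read 4.93 and 4.74 in Tie-2-Etv2 cells and −3.45 and −0.01 in control cells, and Gata2, a factor of progenitors and mast cells, read 5.31 and 4.91 against −1.39 and −0.05. Cpa3 was higher by 6.57 ± 0.96 (adjusted p = 0.000516) and Gata2 by 5.83 ± 0.48 (adjusted p = 2.29e-05). Il1rl1, the interleukin-33 receptor, was higher by 3.18 ± 0.32, and Mcpt8, a basophil protease, at least 4.56-fold. The 3 lower were Mitf, which mast cells need and macrophages also use (−2.88), Hpgds (−3.12) and Tpsb2 (−0.72), which lost its call without control array 2 or Tie-2-Etv2 array 2 (adjusted p = 0.0563 and 0.118). Of 6 defining mast cell markers only Cpa3 was higher, and Tpsb2 was lower. Fcer1a and the mature mast cell proteases Mcpt4 and Cma1 were not well above background on any of the 4 arrays. Of 25 neutrophil and granule genes 14 were higher and 1 lower, with a median of 2.53. Mpo, myeloperoxidase, read 9.14 and 8.87 in Tie-2-Etv2 cells and 4.48 and 6.15 in control cells, and was higher by 3.69 ± 0.53 (adjusted p = 0.000497). Prtn3 and Ctsg, granule proteases, were higher by 2.89 and 5.95, Ltf, lactoferrin, by 4.44, and Cxcr2, a chemokine receptor, by 4.02. Retnlg was at least 20.1-fold higher, while Elane, neutrophil elastase, differed by −0.54 and did not pass (adjusted p = 0.21). Elane was called lower without Tie-2-Etv2 array 1 (adjusted p = 0.0435) and differed by −0.09 without Tie-2-Etv2 array 2. Ctsc, which activates granule proteases and is also made by macrophages, was the 1 lower gene (−2.82). Control array 2 held more of these transcripts than control array 1: the list median was 2.96 and 0.71 on the Tie-2-Etv2 arrays and −1.54 and 0.18 on the control arrays. Without control array 1, or without Tie-2-Etv2 array 1, 8 genes were higher. Without control array 1 the differences of Prtn3, Ctsg and Ltf were 1.90, 3.73 and 2.82.

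Progenitor genes were higher in 24 and lower in 2 of 46 tested, with a median of 1.15. Myb, which definitive progenitors need, read 4.47 and 4.50 in Tie-2-Etv2 cells and 0.79 and 1.92 in control cells, and was higher by 3.13 ± 0.41 (adjusted p = 0.000264). Cd93, a surface protein of progenitors and endothelium, was higher by 3.62 ± 0.26 and Gfi1b by 4.86 ± 0.40. Runx1, which hemogenic endothelium needs to form blood, read 4.02 and 3.84 in Tie-2-Etv2 cells and 4.29 and 4.01 in control cells and did not pass (adjusted p = 0.834), and its other probe differed by 0.63. Spi1, the PU.1 factor of myeloid cells, differed by −0.65 (adjusted p = 0.198) and Gfi1 by 1.15 (adjusted p = 0.253). The 2 lower were Ly6a, the Sca-1 antigen (−1.91), and Igf2bp3 (−0.53). Ly6a lost its call without Tie-2-Etv2 array 2 (adjusted p = 0.0724) and Igf2bp3 without control array 1 or Tie-2-Etv2 array 1 (adjusted p = 0.0762 and 0.151).

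Of 35 genes known to act in the early blood and endothelial programme under Etv2, a list that holds Etv2 itself, 17 were higher and 3 lower. Tal1 and Lmo2, which form a complex in early blood cells, were higher by 1.89 ± 0.37 (adjusted p = 0.00283) and 0.74 ± 0.17 (adjusted p = 0.00777). The 3 lower were Ets1, Ets2 and Mef2c, by differences of −0.83, −1.20 and −0.81. Ets1 lost its call without either control array or Tie-2-Etv2 array 2 (adjusted p from 0.0748 to 0.236), and Ets2, Mef2c and Lmo2 lost theirs without Tie-2-Etv2 array 1 (adjusted p = 0.0505, 0.063 and 0.0564). Of 24 ETS factors 6 were higher (25%) and 5 lower (20.8%), beside 18.1% and 14.4% of all genes. Erg, an ETS factor of endothelium and blood stem cells, read −0.43 and −0.10 in Tie-2-Etv2 cells and −5.47 and −3.37 in control cells, and was higher by 4.15 ± 0.58 (adjusted p = 0.000406). Etv6 and Elf1 were higher by 1.29 and 1.43, Etv1 lower by a difference of −3.79, and Fli1 differed by 0.55 and did not pass (adjusted p = 0.0936).

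Endothelial genes were higher in 32 and lower in 5 of 51 tested, with a median of 1.68. Egfl7, a secreted protein of vessels, read 8.21 and 8.14 in Tie-2-Etv2 cells and 5.18 and 5.25 in control cells, and was higher by 2.96 ± 0.19 (adjusted p = 8.48e-06). Pecam1, the CD31 antigen, was higher by 2.58 ± 0.23, Emcn, a sialomucin of veins and capillaries, by 1.40 ± 0.25, and Tspan18 and Exoc3l2 by 5.51 and 5.19. Kdr, the main VEGF receptor, has 2 probes that disagree. The brighter one read 3.44 and 3.21 in Tie-2-Etv2 cells and 3.85 and 3.18 in control cells and did not pass (adjusted p = 0.619), while the other read 3.46 and 3.73 against −0.34 and −0.29, and with the mean of both probes Kdr was higher by 1.86 (adjusted p = 4.25e-05). The 5 lower were Lyve1, Sema6d, Arhgef15, Mcam and Nos3, and Nos3 lost its call without control array 2 or either Tie-2-Etv2 array (adjusted p from 0.0555 to 0.199). The summed level of 8 defining endothelial markers was 48.9 to 54.7 in Tie-2-Etv2 cells and 13.8 to 17.7 in control cells, and 7 of them were higher.

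Genes of vessel subtypes did not share a direction. Their counts stand beside 18.1% higher and 14.4% lower among all genes. Of 25 arterial genes 5 were higher and 7 lower, and 4 were lower without control array 1 or Tie-2-Etv2 array 1. Dll4, a Notch ligand of arteries, was higher by 2.65 ± 0.43, Gja4, a gap junction protein, by 2.37, and Vegfc, the lymphatic growth factor, by 3.64. Nrp1, a co-receptor of VEGF, and Acvrl1, a BMP receptor, had differences of −3.61 and −2.80. Gja5 differed by −1.87 with the probe that stands for it and by 0.45 with its other probe, which was dark on all 4 arrays, and lost its call without Tie-2-Etv2 array 1 (−1.30, adjusted p = 0.0619). Efnb2 and Hey1 differed by 0.29 and 0.60 and did not pass (adjusted p = 0.565 and 0.51). Of 24 venous, capillary and lymphatic genes 6 were higher and 5 lower. Ackr1, a chemokine receptor of venules and red cells, and Kcne3 were higher by 4.33 and 3.29, and Flt4, the lymphatic VEGF receptor, was at least 7.86-fold higher. The venous factor Nr2f2 differed by −0.62 and did not pass (adjusted p = 0.232). In the vascular basement membrane list 6 of 21 rose and 6 fell, and 3 were lower without control array 1 or Tie-2-Etv2 array 1. Col18a1 and Lama4 were higher by 2.39 and 2.47, and Serpinh1, Nid2 and Lamb2 had differences of −2.67, −2.49 and −2.97.

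General blood cell genes were split. The pan-leukocyte and lymphoid counts stand beside 18.1% higher and 14.4% lower among all genes. Of 49 pan-leukocyte genes 13 were higher and 14 lower, with a median of 0.04, and 7 were lower without control array 1 or Tie-2-Etv2 array 2. Coro1a, an actin regulator of blood cells, read 7.60 and 7.47 in Tie-2-Etv2 cells and 7.54 and 7.18 in control cells and did not pass (adjusted p = 0.615). Plcg2 was higher by 1.30 and the kinase Fgr by 3.73, while Fcer1g, an Fc receptor chain, had a difference of −1.70. Sla2, an adaptor that dampens receptor signals, was higher by 5.33 with its brightest probe and by 0.51 with the other one. Of 28 lymphoid genes 8 were higher and 3 lower: Lat, Ltb and Bcl11a were higher by 4.55, 3.81 and 3.61, and Cd79b, Cd2 and Blnk were the 3 lower. Cd2 lost its call without control array 1 or Tie-2-Etv2 array 2 (adjusted p = 0.0996 and 0.147). A second, dim probe of Bcl11a differed by −0.86. Il7r and Cd3e, which mark lymphoid cells, differed by −1.75 and −0.46 and did not pass (adjusted p = 0.301 and 0.308), and Rag1 was not well above background on any of the 4 arrays.

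Globin and red cell genes were not called as a group. Of 40 erythroid genes 33 did not pass, 5 were higher (12.5%) and 2 lower (5%), beside 18.1% and 14.4% of all genes. Hbb-bh1 and Hbb-y, embryonic beta-like globins, differed by −0.46 (adjusted p = 0.719) and −0.57 (adjusted p = 0.338), and Hba-x by −0.85 (adjusted p = 0.442). Hbb-y read 8.80 and 8.79 in Tie-2-Etv2 cells and 9.55 and 9.18 in control cells, so globin RNA was bright on all 4 arrays of this CD45+ gate. The 5 higher were Gata1, Nfe2, Tal1, Car2 and Epb41, and the 2 lower Epor and Cldn13, which lost its call without control array 1 or Tie-2-Etv2 array 2 (adjusted p = 0.147 and 0.135). Car2, a carbonic anhydrase, was higher by 3.69 ± 0.31 and Epb41 by 0.95 ± 0.15.

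**Figure D3:**
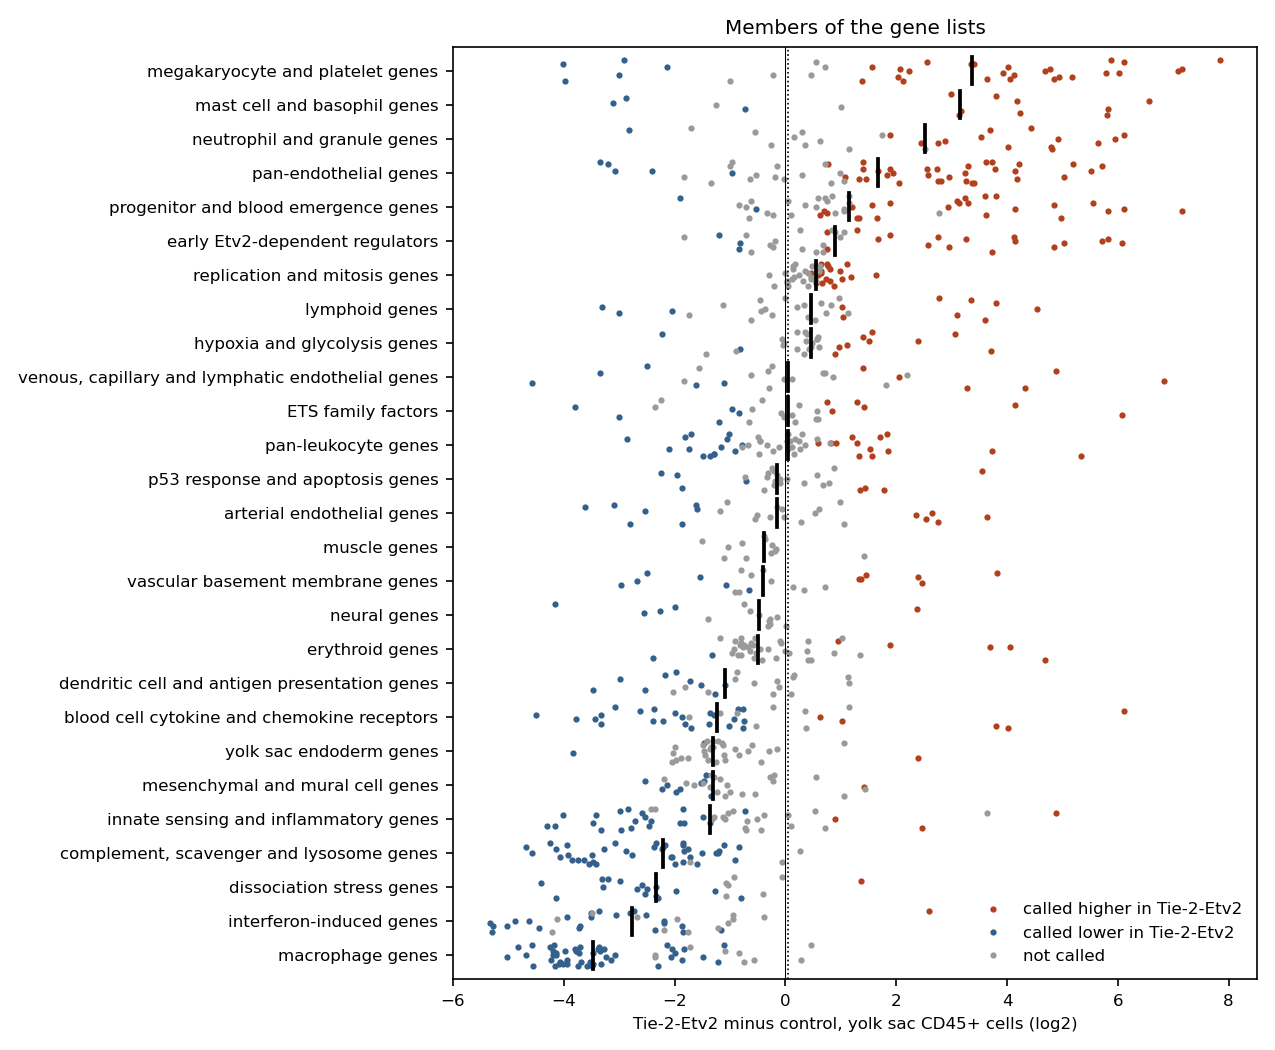
Differences of all tested members of the 27 gene lists. The horizontal axis is the Tie-2-Etv2 minus control difference on the log2 scale; each point is a gene, coloured by its call, black bars are list medians and the dotted line is the median of all genes. Lists are ordered by median, from megakaryocyte genes at 3.38 to macrophage genes at −3.48.

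Dissociation stress genes, which cells raise during tissue digestion and sorting, were lower in 16 and higher in 1 of 23, with a median of −2.34. Fos read 3.50 and 3.89 in Tie-2-Etv2 cells and 7.30 and 6.48 in control cells, and differed by −3.20 ± 0.37 (adjusted p = 0.000142). Egr1, Atf3, Klf2 and Ccn1 differed by −2.54, −4.15, −3.30 and −4.41, and the 1 higher gene was Nr4a1 (1.36). Jun differed by −0.93 and did not pass (adjusted p = 0.0594), but was called lower in 8 of 15 alternative settings, and differed by −0.58 without control array 1. The part of handling in the differences of other genes was not tested.

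Markers of tissues outside blood and endothelium also differed between arrays. The counts of these lists stand beside 18.1% higher and 14.4% lower among all genes. Of 32 yolk sac endoderm genes 29 did not pass, and Afp, alpha-fetoprotein, read 5.97 and 7.59 in Tie-2-Etv2 cells and 8.88 and 7.20 in control cells. The median of the list was −0.83 and 0.97 on the Tie-2-Etv2 arrays and 2.26 and 0.27 on the control arrays, so Tie-2-Etv2 array 1 was the lowest and control array 1 the highest. The summed level of 6 defining endoderm markers was 68.1 to 215 in Tie-2-Etv2 cells and 161 to 529 in control cells, with overlapping ranges. Slc39a4 was higher by 2.39, and Dab2, an endocytic adaptor that macrophages also express, and Gata6 had differences of −3.83 and −1.47. Gata6 lost its call without control array 1 or Tie-2-Etv2 array 1 (adjusted p = 0.203 and 0.228). Of 30 mesenchymal and mural genes 9 were lower and 1 higher, and without control array 1 or Tie-2-Etv2 array 1 the lower ones were 1 and 2. Vim, an intermediate filament protein, differed by −2.13 ± 0.43, and Col1a1, a collagen chain, differed by −1.35 and did not pass (adjusted p = 0.105). The 1 higher was Pdgfrb (1.41, adjusted p = 0.0479), which lost its call with any array left out. The summed level of 6 defining mural markers was 5.87 to 8.05 in Tie-2-Etv2 cells and 12.97 to 27.1 in control cells. The neural markers Sox2, Pax6, Dcx and Elavl3 were not well above background on any of the 4 arrays. Of 15 neural genes 4 were lower and 1 higher, and 8 of the 15 were dark in at least 1 group. The neuronal gene Elavl4 read −0.48 and −0.53 in Tie-2-Etv2 cells and 4.62 and 2.69 in control cells, and differed by −4.16 ± 0.52 (adjusted p = 0.000205). Of 12 muscle genes 0 were called by limma, and at an unadjusted p under 0.05 1 was higher and 2 lower. The part of endoderm, mural or neural RNA in the other results was not tested.

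Replication and mitosis genes were slightly higher. Of 41 tested 18 were higher and 0 lower by limma (also 0 at an unadjusted p under 0.05), with a median of 0.54. With the scaling on detected probes 17 were higher and 1 lower, and 10 to 19 were higher with 1 array left out, the lowest count without Tie-2-Etv2 array 1. Mybl2, a cell cycle transcription factor, read 5.37 and 5.28 in Tie-2-Etv2 cells and 3.70 and 3.69 in control cells, and was higher by 1.63 ± 0.20 (adjusted p = 0.00018). Mcm2 and Mcm3, subunits of the replicative helicase, were higher by 0.87 and 0.99, Top2a by 1.11, Rrm2 by 1.02 and Cdc6 by 1.18. Mki67, the proliferation antigen Ki-67, differed by 0.14 and Ccnb1 by 0.47, and neither passed (adjusted p = 0.509 and 0.102). Of 25 p53 and apoptosis genes 4 were higher and 4 lower, 16% each way, beside 18.1% higher and 14.4% lower among all genes. Perp, Tnfrsf10b and Aen were higher by 3.55, 1.79 and 1.34, and Sesn1, Trp53inp1, Pmaip1 and Casp9 had differences of −2.24, −1.96, −1.87 and −0.72. Pmaip1 lost its call with any 1 array left out (adjusted p from 0.0956 to 0.155) and Casp9 without control array 1 or Tie-2-Etv2 array 1 (adjusted p = 0.0685 and 0.116). Cdkn1a and Mdm2, the usual targets of p53, differed by −0.14 and −0.21 and did not pass (adjusted p = 0.912 and 0.761). Dimmer probes of Cdkn1a differed by −1.23 and −2.13, and the mean of its probes by −1.17 (adjusted p = 0.0983). For Ldha, of the glycolysis genes below, dimmer probes differed by 1.10 and 1.19, and with the mean of probes it was called higher (0.89, adjusted p = 0.0401). Of 29 hypoxia and glycolysis genes 9 were higher (31%) and 2 lower (6.9%), beside 18.1% and 14.4% of all genes. Fewer were higher without control array 2 or Tie-2-Etv2 array 1. With all 4 arrays kept, Egln3, Ddit4, Slc16a3, Slc2a1 and Pfkl were higher by 3.72, 3.07, 1.56, 1.51 and 1.39. Ldha and Vegfa did not pass (adjusted p = 0.363 and 0.569).

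Promoter sequences were searched for motifs, and 4 of them are shown. Isg15 and Ifit3 are interferon-induced, Clec1b is a megakaryocyte gene and Cpa3 a mast cell gene. The sequences are from RefSeq (build GRCm38.p6), from 250 bases before to 50 bases after the start of the gene. Capitals mark matches, on either strand, to 1 of 2 motifs. The first is the interferon response element, searched as the tetramer GAAA repeated after a gap of any 2 bases. The second is AGATAA, which factors of the family of Gata1 and Gata2 bind.
Isg15, chr4:156200769-156201068, minus strand: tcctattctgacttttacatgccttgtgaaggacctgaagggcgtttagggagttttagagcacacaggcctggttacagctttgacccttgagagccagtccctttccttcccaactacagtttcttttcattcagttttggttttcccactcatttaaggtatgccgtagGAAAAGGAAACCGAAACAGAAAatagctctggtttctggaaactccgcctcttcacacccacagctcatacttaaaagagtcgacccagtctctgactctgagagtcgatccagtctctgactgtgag
Ifit3, chr19:34583279-34583578, plus strand: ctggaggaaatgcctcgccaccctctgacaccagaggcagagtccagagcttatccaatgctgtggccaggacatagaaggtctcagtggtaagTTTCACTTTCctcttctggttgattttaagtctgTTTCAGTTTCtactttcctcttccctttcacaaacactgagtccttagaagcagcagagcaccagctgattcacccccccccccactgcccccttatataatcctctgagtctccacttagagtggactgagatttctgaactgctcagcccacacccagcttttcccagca
Clec1b, chr6:129397047-129397346, plus strand: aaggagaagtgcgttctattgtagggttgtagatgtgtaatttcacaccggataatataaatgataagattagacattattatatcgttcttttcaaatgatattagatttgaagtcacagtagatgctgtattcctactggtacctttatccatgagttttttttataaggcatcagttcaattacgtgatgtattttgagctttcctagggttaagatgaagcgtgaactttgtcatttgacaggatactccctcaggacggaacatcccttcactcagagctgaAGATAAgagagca
Cpa3, chr3:20242132-20242431, minus strand: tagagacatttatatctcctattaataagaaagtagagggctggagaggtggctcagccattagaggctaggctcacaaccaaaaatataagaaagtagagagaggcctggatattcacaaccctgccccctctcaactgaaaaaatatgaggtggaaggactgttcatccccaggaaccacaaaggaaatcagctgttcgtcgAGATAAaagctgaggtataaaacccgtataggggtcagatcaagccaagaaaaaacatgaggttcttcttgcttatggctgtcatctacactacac
Isg15 holds 3 overlapping matches to the interferon element and Ifit3 holds 2. Of the 14 called-lower interferon genes with a RefSeq promoter 9 (64.3%) hold the interferon element, against 3.11% of 12907 promoters of all tested genes, 4.98% of those of genes called lower and 2.3% of those of genes called higher. AGATAA is in 33 of 145 promoters (22.8%) of genes higher by more than 4 on the log2 scale and in 5 of 20 of the called-higher megakaryocyte genes and 4 of 14 of the called-lower interferon genes (28.6%), against 7.46% of all, 8.07% of those called higher and 6.52% of those called lower. The ETS core CCGGAAG is in 17.4% of the promoters of called-higher genes, 12% of called-lower genes and 15.4% of genes not called, and in 2.76% of those higher and 2.91% of those lower by more than 4. The motifs do not overlap one another in the 4 promoters. These matches describe letters and not binding, and their part in the differences was not tested. No share was taken over the mast cell list.

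Long intergenic RNAs, which the array names by chromosome position, were also tested: of 3106, 239 were higher and 266 lower, together 16.3%, beside 32.5% of all genes.

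The same genotype difference was then set against that of CD45+ cells of the embryo proper, which have arrays of their own. In embryo CD45+ cells 739 genes were called (3.01%), 564 higher (2.29%) and 175 lower (0.712%). Of the 4458 genes higher in the yolk sac 522 were also higher in the embryo, 11.7% of the first list and 92.6% of the second, and of the 3542 lower genes 142 were also lower, 4.01% and 81.1%. By limma 0 genes were called in opposite directions in the 2 tissues, while at an unadjusted p under 0.05 43 had opposite and 3295 the same sign. The difference between the 2 effects was itself called for 770 genes (3.13%). The yolk sac effect was the more positive for 270 (1.1%) and the more negative for 500 (2.03%), so that 35.1% of these calls were positive, and 24.6% with the scaling on detected probes. In the list of macrophage genes the yolk sac effect was more negative than the embryo effect for 21 of 58 genes, with list medians of −3.48 and −0.93. The same held for 17 of 43 complement, scavenger and lysosome genes, with medians of −2.21 and −0.78. F13a1 differed by −3.15 in the yolk sac and by −0.26 in the embryo, and the difference of −2.89 ± 0.41 passed (adjusted p = 0.00953). Tissue, slide and scan cannot be told apart, as the embryo arrays were on another slide, although each genotype difference is within 1 slide. These counts rest on single arrays: with 1 of the 8 arrays left out the effects differed for 88 to 1591 genes, 88 of them without embryo Tie-2-Etv2 array 1, 122, 333 and 297 without yolk sac Tie-2-Etv2 array 1, Tie-2-Etv2 array 2 or control array 1, and 1591 without yolk sac control array 2.

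The genes for which the yolk sac effect exceeded the embryo effect most were Ramp3, Clec1b, Capn3, F2r, Zfp507 and Gbx2, with differences of effects between 3.56 and 3.14. Ramp3, a partner of the adrenomedullin receptor, was higher by 4.09 in the yolk sac and differed by 0.53 in the embryo. Clec1b and F2r rose in the yolk sac by 7.85 and 4.78 and had differences of 4.36 and 1.35 in the embryo. The genes with the most negative differences of effects were Cbr2, Septin10, Enpp2, Nhlh1, Fbln5 and Gm6213, between −4.55 and −3.65. Cbr2, a carbonyl reductase, differed by −4.89 in the yolk sac and by −0.33 in the embryo. Enpp2, which makes lysophosphatidic acid, and Fbln5, an elastic fibre protein, differed by −4.76 and −4.92 in the yolk sac and by −0.93 and −1.13 in the embryo.

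CD45− cells of the yolk sac, on the same slide, showed a different pattern. The labels do not say whether they came from the same yolk sacs as the CD45+ cells. There 10288 genes were called (41.8%), 6406 higher (26.1%) and 3882 lower (15.8%). The effect in CD45+ cells differed from that in CD45− cells for 4518 genes (18.4%), and was the more positive for 1939 (7.89%) and the more negative for 2579 (10.5%). The share of positive calls was 42.9%, and 55.5% with the scaling on detected probes. Of the 4458 genes higher in CD45+ cells 2835 were also higher in CD45− cells, 63.6% of the first list and 44.3% of the second, while 287 were lower there. Of the 3542 lower genes 1434 were also lower (40.5% and 36.9%), while 358 were higher there. Megakaryocyte genes had positive medians in both gates, 3.38 in CD45+ and 4.41 in CD45− cells. Endothelial genes had a median of 1.68 in CD45+ cells and −1.97 in CD45− cells, and the effects differed for 45 of 51 genes, 42 of them more positive in CD45+ cells. Pan-leukocyte genes had a median of 0.04 in CD45+ cells and 4.33 in CD45− cells, where 47 of 49 were higher, and the difference of effects was negative for 45 genes. Macrophage genes had a median of −3.48 in CD45+ cells and 0.02 in CD45− cells, where 12 were higher and 17 lower.

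Single genes show how far the gates parted. F13a1 differed by −3.15 in CD45+ and by 8.34 in CD45− cells, and the difference of effects was −11.49 ± 0.41 (adjusted p = 5.68e-07). Pf4 had a mean level of 6.96 in Tie-2-Etv2 and 9.09 in control CD45+ cells, against 9.06 in Tie-2-Etv2 and 1.56 in control CD45− cells. Sla, Tyrobp, Plek and Rac2, adaptors and signalling proteins of blood cells, were higher in CD45− cells by 8.36, 7.31, 8.46 and 9.19, while in CD45+ cells they differed by −0.78, −1.75, −0.22 and 0.57, and Tyrobp passed there, although not without control array 1 or Tie-2-Etv2 array 2 (adjusted p = 0.0748 and 0.0687). In the other direction Hid1 and Slco3a1 were higher by 5.45 and 5.29 in CD45+ cells and differed by −0.98 and −0.85 in CD45− cells. Pi16 and Ltf were higher in CD45+ cells by 2.61 and 4.44 and differed by −5.52 and −1.84 in CD45− cells. F3, which encodes tissue factor, differed by 1.65 in CD45+ cells and by −4.93 in CD45− cells. In CD45+ cells it did not pass (adjusted p = 0.218), although it did in a fit of the 4 arrays alone (0.0174) and of the yolk sac slide alone (0.00819).

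**Figure D4:**
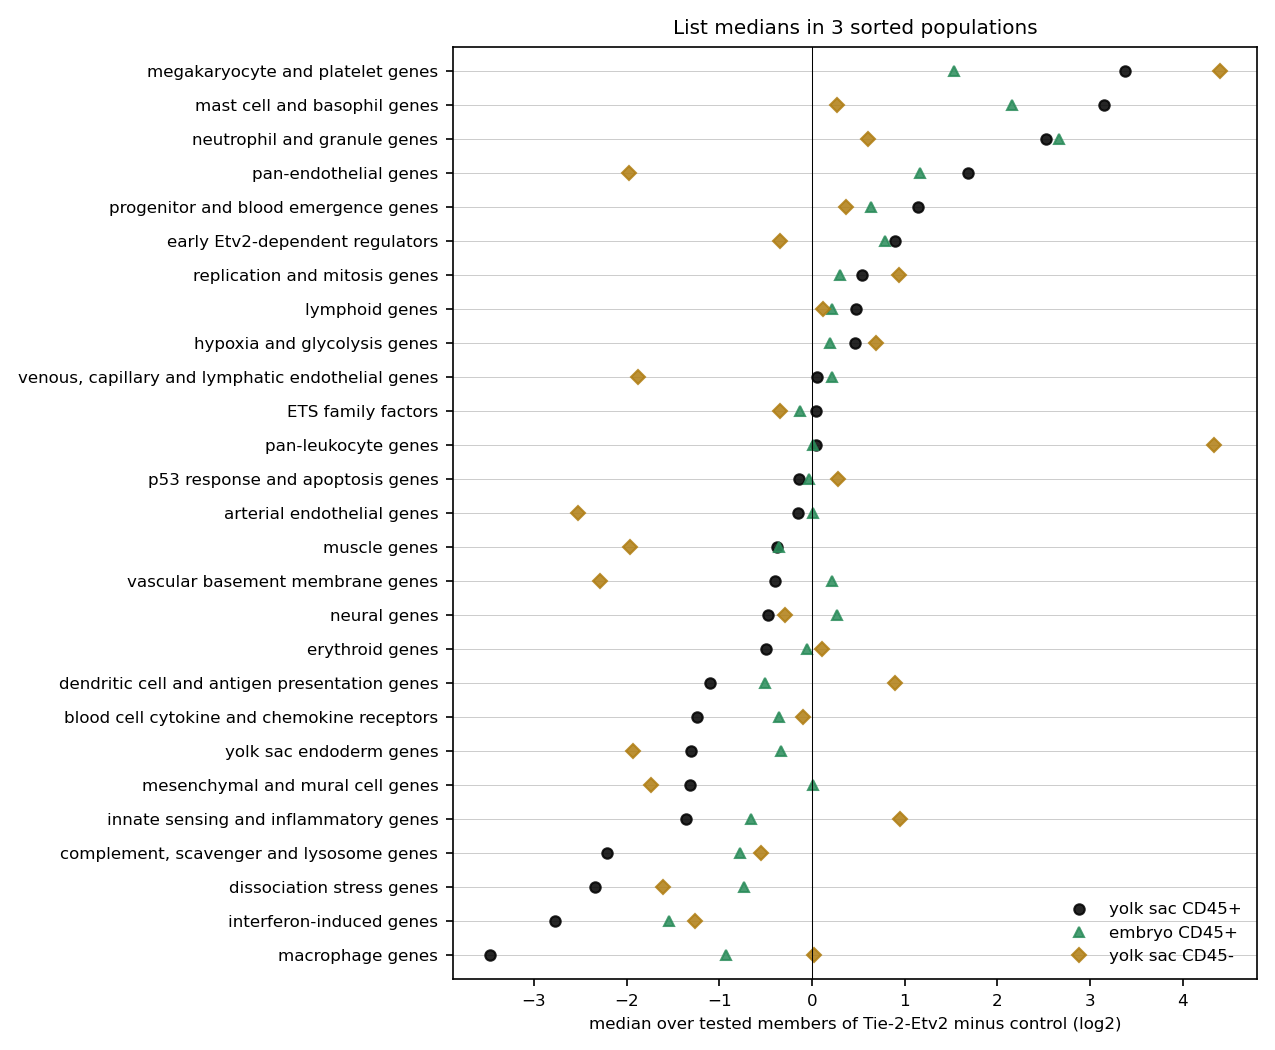
Median genotype difference of each gene list in 3 sorted populations. The horizontal axis is the median over tested members of the Tie-2-Etv2 minus control difference on the log2 scale, and the symbols stand for yolk sac CD45+, embryo CD45+ and yolk sac CD45− cells. Macrophage genes are at −3.48, −0.93 and 0.02, and endothelial genes at 1.68, 1.17 and −1.97.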

How the data were processed

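Spot intensities of 16 one-colour arrays were made with Agilent Feature Extraction 10.7, per the submitters' processing notes and the file headers; the processed intensity deposited by the authors was background-subtracted and not normalized between arrays. The authors' deposited table held log2 values, and no source used here says how it was made. Compared with the scanner files, each column was log2 of the processed intensity less 1 constant per array, and each row had the median over the 4 arrays of its tissue and gate taken off. The scale and direction of the table matched; why its constants were chosen stays unknown. Its column medians here were −0.0089 and −0.121 for Tie-2-Etv2 arrays and 0.146 and 0.0033 for control arrays. It served as an alternative.

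Control and outlier spots were left out and spots of a probe averaged, which left 55594 probes. Levels were log2 processed intensity minus the array's 75th percentile. A probe was kept where some group of the 8 had it well above background on both of its arrays (34125), and the brightest stood for a gene, giving 24588 genes, 16532 of them with a symbol through RefSeq names. From 50.6% to 59.9% of probes were well above background on an array, and none was saturated. The number of arrays limits the precision.

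All 16 arrays entered 1 model in limma (version 3.58.1 under R 4.3.3; lmFit and eBayes, 8 residual and 2.29 prior degrees of freedom), with differences of effects as contrasts, and tested on simulated data. The members, the 27 gene lists (801 genes, 84 in more than 1 list) and the comparisons were chosen with earlier results of these data known. Named genes were the gate and transgene genes, the 15 largest changes each way well above background in both groups, the 8 largest bounds each way, up to 8 members of each list (4 anchors and the 4 smallest p) and the 6 largest differences of effects each way. Outside this rule, members of small counts were named after their values were seen: Ppbp, Gp6, Hpgds, Tpsb2, Ifitm1, Ly6a, Igf2bp3, Cldn13, Clec4d, Clec4e, Lyve1, 4930447F24Rik, Il2rg, Cd2, Blnk, Ets1, Ets2, Mef2c, Sema6d, Arhgef15, Mcam, Nos3, Nr4a1, Pmaip1 and Casp9. Some genes that the rule or a small count would name are not reported here. Python 3.11.15 with pandas 2.3.3 and numpy 2.4.6 prepared the tables. Alternatives were other scalings, background corrections, filters, probe rules, priors, array sets, a replicate block and each array left out.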

Additional observations from a re-analysis of the deposited data

Results flagged for a closer look

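The results below stood out because the genotype difference in yolk sac CD45+ cells departed, by limma's test of the difference itself, from that in another sorted population. Against CD45+ cells of the embryo the effects differed for 770 genes, a count that fell to 88 without embryo Tie-2-Etv2 array 1. The effect was more positive in the yolk sac for Ramp3 by 3.56, Clec1b by 3.49, Capn3 by 3.45, F2r by 3.43, Zfp507 by 3.25 and Gbx2 by 3.14. It was more negative there for Cbr2, Septin10, Enpp2, Nhlh1, Fbln5 and Gm6213, with differences of effects of −4.55, −4.02, −3.84, −3.82, −3.80 and −3.65.

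Against CD45− cells of the yolk sac the effects differed for 4518 genes. The effect was more positive in CD45+ cells for Pi16 by 8.12, F3 by 6.59, Hid1 by 6.43, Ltf by 6.29 and Slco3a1 by 6.14. It was more negative there for F13a1, Pf4, Sla, Tyrobp, Plek and Rac2, with differences of effects of −11.49, −9.63, −9.14, −9.06, −8.68 and −8.62. For Tff1 the fitted difference of effects was 12.17, but its probe was not well above background on either control array of CD45+ cells, so this is no measured size.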

How the results depend on the processing

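A fit of the 4 arrays alone called 4496 genes, 2287 higher and 2209 lower, and left the difference of Etv2 at 6.08 with an adjusted p of 0.0637. With 1 array left out 5262 to 7494 genes were called, 2798 to 3950 of them higher. The other alternatives called 7061 to 8334 genes. With the replicate number as a replicate block 4327 genes were higher and 3534 lower. The deviations of same-numbered arrays correlated at −0.006 in yolk sac CD45+, 0.082 in yolk sac CD45− and 0.024 in embryo CD45+ cells. In embryo CD45− cells the correlation was 0.267. Same-numbered arrays thus did not deviate together throughout, and the numbers were not taken as pairs. Normexp moved the median of all genes to −0.072, a shift of −0.111. It shrank the difference of 42 of 206 called genes in the text by over 1.5 times, several of them dim in 1 group. Among them were Erg (4.15 to 1.87), Ackr1 (4.33 to 2.52), Dll4 (2.65 to 0.97) and Emcn (1.40 to 0.66). Etv2 is not counted in the 206, and normexp moved its difference from 6.08 to 3.42.

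The comparison with embryo CD45+ cells depended most on the processing: 0 genes differed with the block, with 0 in either direction. With no filter on dim probes 321 differed, 90 more positive and 231 more negative. More positive were 461 with normexp and 452 with a trended robust prior. Leaving out 1 array gave 88 to 1591 genes, 25 to 649 more positive and 63 to 942 more negative. Against yolk sac CD45− cells 1688 to 2616 genes were more negative with 1 array left out. The cause was not tested.

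Of the 206 called genes in the text, which leave out Etv2, 171 kept their call under every alternative that tested them. The other 35 lost it under at least 1. Of the 15 alternatives, the strict filter on dim probes did not test genes without a probe well above background on all 4 arrays. Kcnj5, Gp1ba and Erg are examples. Of 38 that did not pass 17 were called in at least 1 alternative: Jun in 8, Ifit1 in 5, H2-Ab1 and Spi1 in 3, Elavl3, F3, H2-Aa, Mcpt4, Rac2, Tff1 and Tnf in 2, and Ccnb1, Col1a1, Elane, Fli1, Il7r and Ldha in 1. Among genes that did not pass, 6 changed sign: with the mean of probes Kdr (1.86) and Runx1 (0.20), and over the arrays left out Coro1a (−0.003 to 0.36), Il7r (−3.69 to 0.20), Kdr (−0.53 to 0.14), Mdm2 (−0.53 to 0.11) and Vegfa (−0.027 to 0.81). The medians of the pan-leukocyte, ETS factor and venous lists lay near 0 and changed sign between scalings. The other 24 lists kept theirs.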
